A study of Homo sapiens with 6 samples.

Results

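The enzymes that add methyl groups to histone lysines (writers), the enzymes that remove them (erasers) and the core subunits of the writer complexes were examined in ONS-76 cells after knockdown of the eraser KDM1A. Of 49 genes listed, 17 erasers and 32 writers and subunits, 48 had a probe set that the platform annotation assigns to that gene alone, out of 19775 genes so named on the array. The gene without one was *ASH1L*, an H3K36 writer. The 48 genes were covered by 161 of the 54613 probe sets tested, and 39 of them had several, up to 11 for *KMT2A*. For summaries 1 probe set stood for each gene, the one brightest on average across the 6 arrays, and *KDM1A* itself was left out of the set.

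ONS-76 cells derive from a human medulloblastoma, a malignant tumor of the cerebellum. Total RNA from cells treated with siRNA against KDM1A (siKDM1A) or mock treated (control) was hybridized to Affymetrix U133 Plus 2.0 arrays, with 3 arrays per group from separate transfections, called a, b and c in each group. According to the sample labels cells were harvested after 48 h, while the tables of the study name a later time for these arrays. Mock cells received the transfection reagent without an siRNA according to the methods, so effects of KDM1A loss and of carrying an siRNA cannot be told apart, and knockdown was made in 1 cell line.

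Methyl groups on histone H3 lysines mark chromatin states. H3K4 methylation is found at active promoters and enhancers, H3K36 methylation along transcribed genes, H3K9 methylation in heterochromatin and H3K27 trimethylation at genes silenced by the Polycomb repressive complex PRC2. KDM1A, also called LSD1, removes methyl groups from H3K4 by a flavin-dependent oxidation that needs a methylated amine with a free electron pair, so it does not act on trimethylated lysine. The other erasers examined here share the JmjC domain and use iron and oxoglutarate. Several of them act on more than 1 residue, for example the KDM4 enzymes on H3K9 and H3K36, and each gene was placed under a single residue here.

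The labels name KDM5A, a different H3K4 eraser, as the siRNA target beside the synonym LSD1, whereas the paper names KDM1A. *KDM1A* measured 9.50, 9.57 and 9.49 on the control arrays and 6.25, 6.34 and 6.31 on the siKDM1A arrays (log2 RMA values). It was 9.33-fold lower after knockdown (log2 difference −3.22, SE 0.08, adjusted p = 7.12e-07, limma, adjusted by Benjamini-Hochberg across the whole array). *KDM5A* measured 7.65, 7.77 and 7.68 in control and 7.33, 7.52 and 7.45 in siKDM1A cells, a log2 difference of −0.27 (SE 0.09, limma adjusted p = 0.14), and none of its 5 probe sets passed the threshold of 0.05. The arrays labelled KDM5A siRNA were therefore treated as the KDM1A knockdown, and *KDM5A* was kept among the erasers.

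Array medians lay between 5.09 and 5.16 and lower quartiles between 3.63 and 3.70. The siKDM1A array c stood apart from its group, with correlations of 0.994 to the other siKDM1A arrays. It had the lowest of the 6 values in 53 of the 161 probe sets of the methylation enzymes, against 43 for siKDM1A array a and 20 for b. It lay more than 0.5 log2 units below all other arrays in 7 of these probe sets and in 522 of all probe sets, against at most 79 of all probe sets for any other array. Of 8 lineage markers 2 were called lower and 0 higher, against 5.46% and 3.45% of all genes. *ZIC1* and *ZIC2*, transcription factors of cerebellar granule cells, fell by 0.39 and 0.40. *ATOH1*, *BARHL1*, *NES* and *VIM* were not called and differed by −0.02, 0.17, 0.08 and −0.13. *OTX2*, expressed in several medulloblastoma subgroups, was dimmer than the lower quartile on all 6 arrays and *PAX6* dimmer than the median. Of 5 markers of other cells, *PTPRC*, *CD14* and *EPCAM* were dimmer than the median on all arrays, *CDH5* was not called and *PECAM1* was higher by 0.35, and their part in the results was not tested. In bulk RNA, fewer cells of a type and less RNA per cell cannot be told apart.

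At the brightest probe set no writer, eraser or subunit was called higher after KDM1A knockdown, and 9 of 48 fell. *KDM7A* was called higher at its dimmer probe set and with the mean of its probe sets. Those 9 were the erasers *PHF2*, *KDM3B*, *KDM3A* and *KDM2B*, the writers *SETDB2*, *EZH2*, *NSD2* and *NSD3*, and the complex subunit *WDR5*, with differences of 1.27-fold to 1.59-fold. The share of genes called lower was 18.75% here, against 5.46% over all genes and 7.91% over the 13173 genes whose probe set was at least as bright as the median probe set, a range that includes all 48. Among all genes 3.45% were called higher. With 1 array left out 2 to 6 genes were called lower, namely 2 without control c, 3 without control a or b, 4 without siKDM1A a or b and 6 without siKDM1A c. Cyclic loess gave 5 and a one-way ANOVA 3. At an unadjusted p under 0.05, 20 of the 48 were lower and 1, *KDM7A*, was higher, against 14.4% and 9.75% of all genes. Of the 13173 brighter genes 2650 were lower and 1460 higher at that limit.

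Small decreases were common over the 48 genes, and the counts that follow include the 9 called lower. The log2 difference was negative in 39 of 48 genes (81.25%), in 48.3% of all genes and in 54.6% of the brighter genes. Its median was −0.24 over the 48 genes, 0.01 over all genes and −0.02 over the brighter genes. Without siKDM1A array c the median over the 48 was −0.15 and 6 genes were called lower. In 23 genes all siKDM1A arrays lay below all control arrays, which held for 18.1% of all genes, and in 2 genes, *KDM5C* and *KDM7A*, they lay above, which held for 13.5%. Of the 13173 brighter genes 3293 lay below and 1951 above in this way. At the brightest probe set the differences ran from −0.67 for *PHF2* to 0.30 for *KDM7A*. Over all 161 probe sets they ran from −0.90, at a dimmer probe set of *KMT5B*, to 0.59, at the dimmer one of *KDM7A*.

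**Figure D1:**
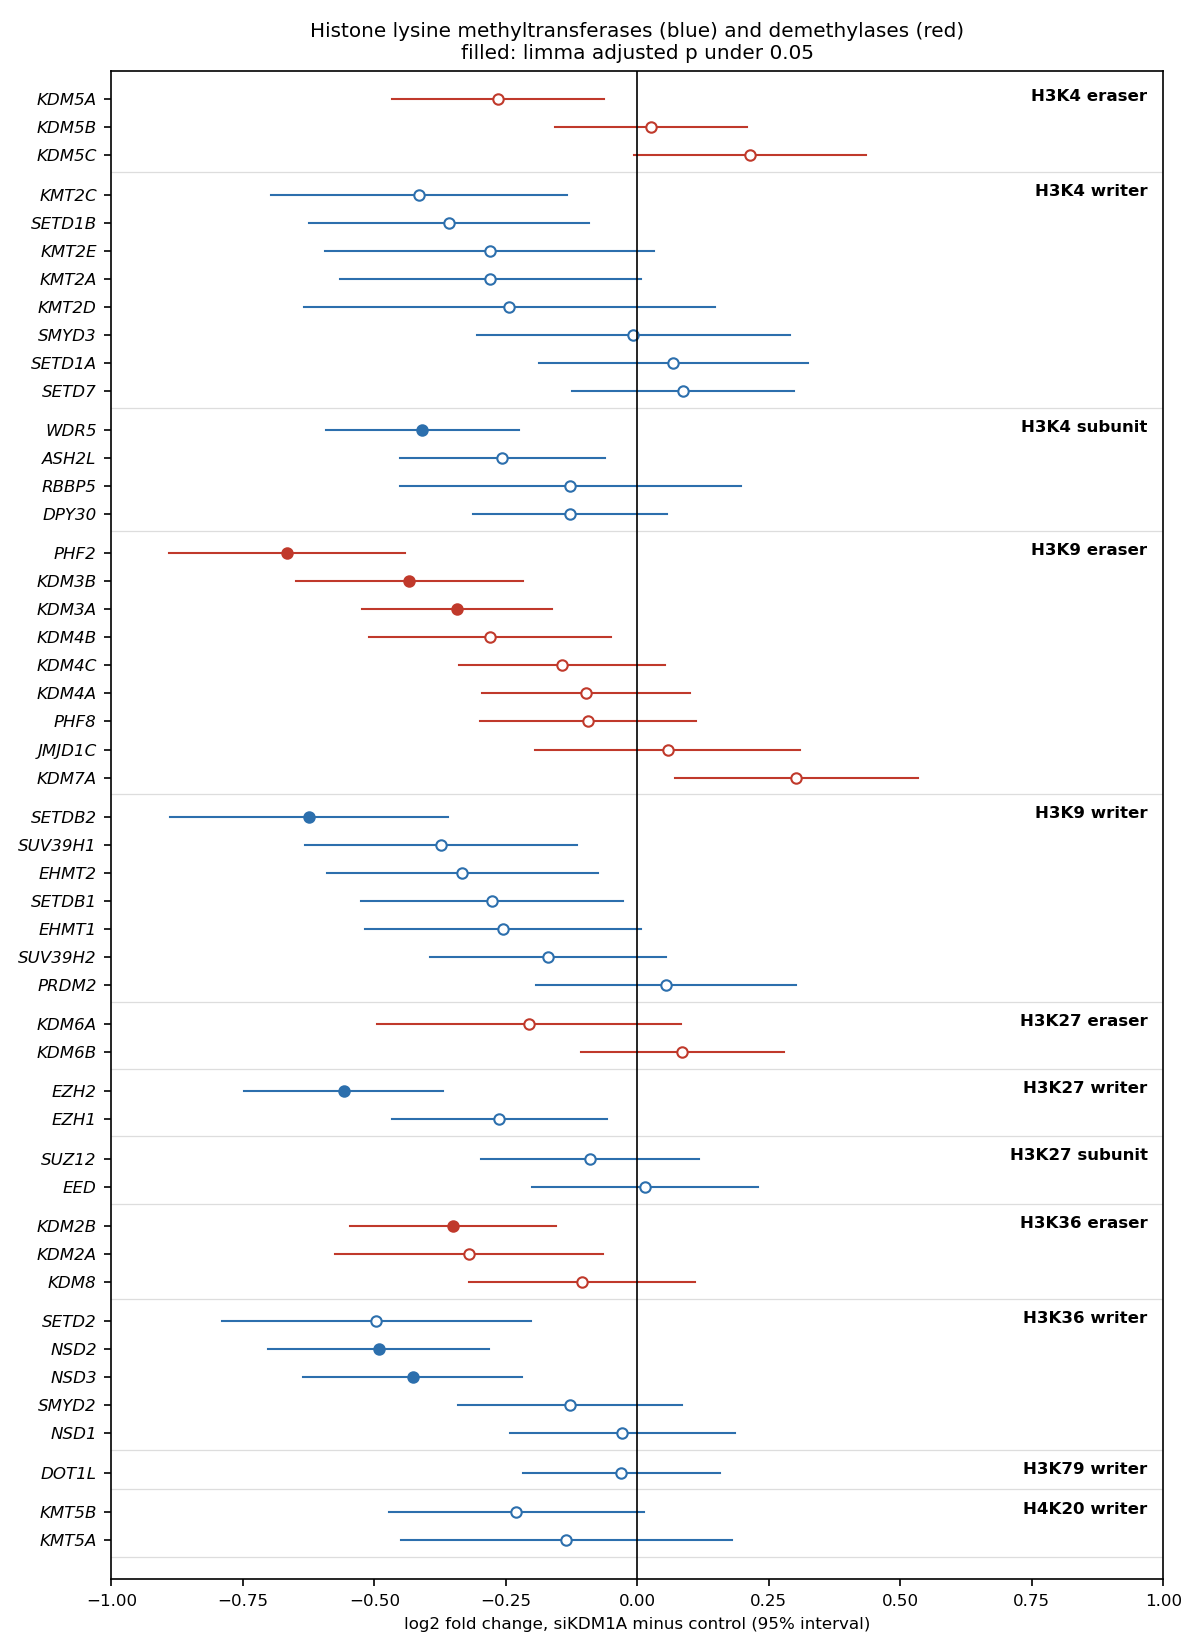
Log2 difference between siKDM1A and control (x axis) with its 95% interval for the 48 genes at their brightest probe set, grouped by target residue and role. Erasers are red and writers or subunits blue, and the 9 filled points passed the threshold, all to the left of 0.

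The comparison also addresses whether the loss of KDM1A was accompanied by a higher mRNA level of another eraser. Of 17 erasers, 0 were called higher and 4 lower by limma, against 3.45% and 5.46% of all genes. With so low a share called higher, 0 of 17 does not set the erasers apart. Their median log2 difference was −0.14. At the brightest probe set the upper limit of the 95% interval was below a 1.5-fold rise for each of the 17, the highest being 1.45-fold for *KDM7A*, and for 7 of them it was below no change. The dimmer probe set of *KDM7A* lay past this bound, with a 1.51-fold rise and an upper limit of 1.76-fold. Among writers and subunits 5 of 31 were called lower, against the same 5.46% of all genes, and the median was −0.26. Of the 31 differences 27 were negative, against 48.3% of all genes and 54.6% of the brighter genes. Whether erasers and writers differed from each other was not tested.

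The H3K4 erasers are those whose substrate is closest to that of KDM1A. *KDM5B* measured 8.04, 7.96 and 7.96 in control and 8.04, 8.03 and 7.97 in siKDM1A cells, and the groups overlapped. Its log2 difference was 0.03 (SE 0.08, limma adjusted p = 0.91). None of the 5 *KDM5B* probe sets was called, and the others ran from −0.09 to 0.22. The next brightest differed by 0.20 (limma adjusted p = 0.32). The dimmest, below the lower quartile on all arrays, differed by 0.22 (limma adjusted p = 0.25), with all siKDM1A values above all control values. *KDM5C*, the X-linked member of the family, measured 5.60, 5.73 and 5.79 in control and 5.92, 5.80 and 6.04 in siKDM1A cells. All siKDM1A values were above all control values, but the difference of 0.21 (SE 0.10) did not pass the test (limma adjusted p = 0.28), and the other probe set of *KDM5C* gave −0.21. For the *KDM5A* probe sets the differences ran from −0.39 to 0.06.

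*KDM1B*, the paralog of KDM1A with the same flavin chemistry, was not among the 49 genes but bears on the same question. It measured 7.40, 7.44 and 7.48 in control and 7.61, 7.66 and 7.42 in siKDM1A cells. The arrays a and b of the siKDM1A group were above the controls and array c was not. The log2 difference was 0.12 (SE 0.09, limma adjusted p = 0.54), with an upper 95% limit of 1.26-fold. Its other probe set, dimmer than the lower quartile on all arrays, differed by 0.20 (limma adjusted p = 0.28). There all siKDM1A values were above all control values, and the upper limit was 1.33-fold.

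At the brightest probe set H3K9 erasers held the largest decrease of the 48 genes. *PHF2*, a JmjC protein that acts on dimethylated H3K9, measured 8.56, 8.31 and 8.31 in control and 7.75, 7.64 and 7.79 in siKDM1A cells, and the groups were clearly separated. It was 1.59-fold lower (log2 difference −0.67, SE 0.10, limma adjusted p = 0.0051). A second, dim *PHF2* probe set with values near 4.1 differed by −0.06, and with the mean of both probe sets the difference was −0.36 and still called.

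*KDM3B*, which removes mono- and dimethylation from H3K9, measured 9.81, 9.57 and 9.58 in control and 9.25, 9.17 and 9.24 in siKDM1A cells. It was 1.35-fold lower (log2 difference −0.43, SE 0.10, limma adjusted p = 0.031). Its other probe set, at 9.08, 8.72 and 8.81 against 8.40, 8.26 and 8.17, fell by 0.59 (limma adjusted p = 0.017), so both *KDM3B* probe sets moved the same way. The latter was called in 2 of 6 leave-one-out fits, those without siKDM1A a or control b. The related eraser *KDM3A*, a gene known to be induced by hypoxia, measured 8.87, 8.91 and 8.93 in control and 8.61, 8.54 and 8.54 in siKDM1A cells. It was 1.27-fold lower (log2 difference −0.34, SE 0.08, limma adjusted p = 0.038), while its other probe set was near 2 on every array and gave 0.00. *KDM3A* and *KDM3B* at the brightest probe set were no longer called when any single array was left out, with adjusted p between 0.060 and 0.16.

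The other H3K9 erasers did not pass the test at their brightest probe set. *KDM4B* differed by −0.28, *KDM4C* by −0.14 and *KDM4A* by −0.10, all enzymes that act on trimethylated H3K9 and H3K36. The PHD finger eraser *PHF8* differed by −0.09 and *JMJD1C*, a relative of the KDM3 enzymes, by 0.06.

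*KDM7A*, an eraser of dimethylated H3K9 and H3K27, was the single gene of the set with a probe set called higher. At the brightest probe set it measured 6.10, 6.29 and 6.04 in control and 6.33, 6.44 and 6.57 in siKDM1A cells, a difference of 0.30 (SE 0.10, limma adjusted p = 0.14). At the dimmer one it measured 4.81, 5.06 and 5.04 in control and 5.45, 5.62 and 5.61 in siKDM1A cells, a difference of 0.59 (SE 0.10, limma adjusted p = 0.010). Both probe sets were higher on every siKDM1A array than on any control array, and with the mean of the 2 probe sets *KDM7A* was called higher. The dimmer probe set remained called in each of the 6 leave-one-out fits, with adjusted p between 0.019 and 0.039.

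**Figure D2:**
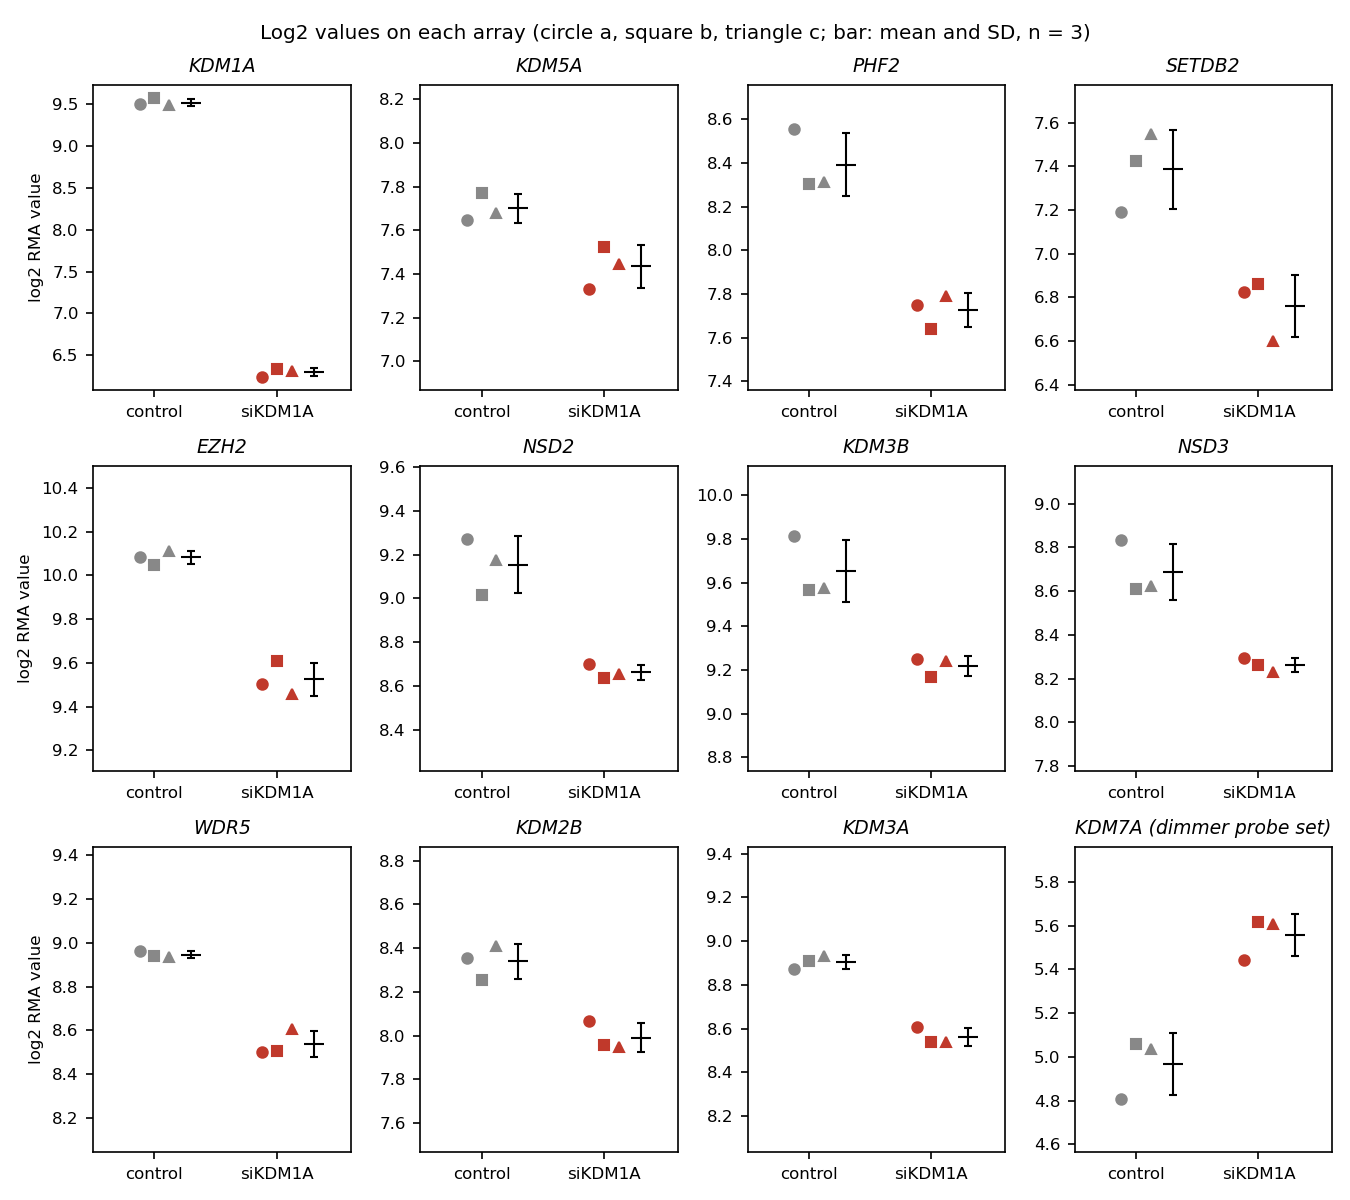
Log2 RMA values (y axis) on the 3 control and 3 siKDM1A arrays for KDM1A, KDM5A, the 9 genes called lower and the dimmer probe set of KDM7A, with mean and SD beside the points. The y axes of all panels except that of KDM1A have the same span, and the groups do not overlap in any panel, although KDM5A did not pass the test.

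Among H3K9 writers *SETDB2*, a relative of the heterochromatin enzyme SETDB1, fell. It measured 7.19, 7.42 and 7.55 in control and 6.82, 6.86 and 6.60 in siKDM1A cells, and was 1.54-fold lower (log2 difference −0.62, SE 0.12, limma adjusted p = 0.015). Of its 6 probe sets the next brightest fell by 0.59 (limma adjusted p = 0.024), which was not called without siKDM1A array c or control array b or c, and the 4 dimmer ones differed by −0.05 to −0.29. *SETDB2* was not called without control array b or without control array c.

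The enzymes of pericentric heterochromatin and the G9a complex differed in the same direction without passing the test. *SUV39H1* differed by −0.37, *EHMT2* (G9a) by −0.33, *SETDB1* by −0.28, *EHMT1* (GLP) by −0.26 and *SUV39H2* by −0.17. *EHMT2* was called lower when siKDM1A array c was left out. *PRDM2*, known as a tumor suppressor with a PR domain, gave opposite signs on its probe sets. Its brightest measured 7.54, 7.65 and 7.73 in control and 7.54, 7.65 and 7.89 in siKDM1A cells (difference 0.05, limma adjusted p = 0.84), and another measured 6.14, 6.17 and 6.19 against 5.61, 5.68 and 5.91 and fell by 0.44 (limma adjusted p = 0.032), a call that remained in 1 of 6 leave-one-out fits, the one without siKDM1A c.

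*EZH2*, the catalytic subunit of PRC2, fell while the core subunits *SUZ12* and *EED* did not pass the test. It measured 10.09, 10.05 and 10.11 in control and 9.50, 9.61 and 9.46 in siKDM1A cells, and the gap between the groups was wider than the range within either. *EZH2* was 1.47-fold lower (log2 difference −0.56, SE 0.08, limma adjusted p = 0.0052), and it was called in all 14 alternative settings tried, with adjusted p between 0.00085 and 0.039. The setting that sets aside probe sets with shared probes repeated the main fit for *EZH2*, which has a single probe set. Its paralog *EZH1* differed by −0.26, and the core subunits *SUZ12* and *EED* differed by −0.09 and 0.01. *PHF19* and *RBBP4*, PRC2 proteins outside the 49 genes, were called lower, by 0.69 and 0.45. Further such proteins, *JARID2*, *AEBP2*, *MTF2*, *PHF1* and *RBBP7*, were not called at the brightest probe set. They differed by 0.17, −0.22, −0.31, −0.08 and −0.14. A dim *AEBP2* probe set fell by 0.63 (limma adjusted p = 0.0039). The H3K27 erasers *KDM6A* and *KDM6B* differed by −0.21 and 0.09, and neither passed the test on any probe set. The 5 probe sets of *KDM6B* all gave small positive differences, from 0.08 to 0.15.

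At the brightest probe set all 8 H3K36 genes had negative differences, with a median of −0.34. Differences were negative in 48.3% of all genes and 54.6% of the brighter genes. Of the 8, 3 were called lower, as were 5.46% of all genes and 7.91% of the brighter genes. *NSD2*, which dimethylates H3K36, measured 9.27, 9.02 and 9.17 in control and 8.70, 8.63 and 8.65 in siKDM1A cells. It was 1.41-fold lower (log2 difference −0.49, SE 0.09, limma adjusted p = 0.016). Of its 6 probe sets 3 were called lower, by 0.46 to 0.50, and the others differed by −0.20 to −0.38. The 3 that were called carry the suffix _s_at, which marks probes shared between transcripts, and the single *NSD2* probe set without it differed by −0.20 (limma adjusted p = 0.38). *NSD2* was also not called without control array a or without control array c.

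Its relative *NSD3* measured 8.83, 8.61 and 8.62 in control and 8.29, 8.26 and 8.23 in siKDM1A cells and was 1.34-fold lower (log2 difference −0.43, SE 0.09, limma adjusted p = 0.028). This was 1 of 7 *NSD3* probe sets. The others were not called, and with their mean the difference was −0.14 (limma adjusted p = 0.34). In one of them siKDM1A array c measured 6.37 while the other 5 arrays lay between 7.53 and 7.85. *NSD1*, the first member of the family, differed by −0.03.

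*SETD2*, the H3K36 trimethylase, had the largest negative difference among genes that did not pass at the brightest probe set. It measured 8.10, 7.80 and 7.77 in control and 7.50, 7.53 and 7.16 in siKDM1A cells (difference −0.50, SE 0.13, limma adjusted p = 0.059). At a dimmer probe set it measured 7.26, 7.11 and 7.11 against 6.53, 6.70 and 6.68 and fell by 0.53 (limma adjusted p = 0.011), so the size was alike and the spread smaller. The methyltransferase *SMYD2* differed by −0.13.

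Of the H3K36 erasers *KDM2B*, whose zinc finger binds unmethylated CpG islands, measured 8.36, 8.25 and 8.41 in control and 8.07, 7.96 and 7.95 in siKDM1A cells. It was 1.27-fold lower (log2 difference −0.35, SE 0.09), and its limma adjusted p of 0.049 was just inside the threshold. *KDM2A* differed by −0.32 and *KDM8* by −0.10, and neither passed. The dimmer probe sets went partly the other way, at 0.05 and −0.12 for *KDM2A* and −0.01 and 0.31 for *KDM8*. For the last all siKDM1A values were above all control values (limma adjusted p = 0.17). *KDM2B* and *NSD3* were not called when any single array was left out.

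In the H3K4 writer complexes *WDR5*, a subunit that all complexes of the family share, fell. It measured 8.96, 8.94 and 8.93 in control and 8.50, 8.50 and 8.61 in siKDM1A cells, with very little spread among the controls. *WDR5* was 1.33-fold lower (log2 difference −0.41, SE 0.08, limma adjusted p = 0.020), and its other probe set differed by −0.29 (limma adjusted p = 0.17). When any single array other than siKDM1A array c was left out, the adjusted p was between 0.055 and 0.087. The other core subunits differed by −0.26 (*ASH2L*), −0.13 (*RBBP5*) and −0.13 (*DPY30*).

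None of the 8 H3K4 writers was called at the brightest probe set, where 5.46% of all genes were called lower and 3.45% higher. With shares so low, 0 of 8 does not set these writers apart. The differences of *KMT2C*, *SETD1B*, *KMT2E*, *KMT2A* and *KMT2D* were −0.42, −0.36, −0.28, −0.28 and −0.24. *SMYD3*, *SETD1A* and *SETD7* lay near 0, at −0.01, 0.07 and 0.09. *KMT2A*, the MLL gene rearranged in leukemia, measured 7.34, 6.99 and 6.94 in control and 6.69, 6.57 and 6.48 in siKDM1A cells at the single one of its 11 probe sets that was called, a fall by 0.51 (limma adjusted p = 0.040) that was not called when any single array was left out. At its brightest probe set *KMT2A* measured 7.90, 7.88 and 7.89 in control and 7.73, 7.80 and 7.31 in siKDM1A cells, so the difference there came mainly from array c.

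*DOT1L*, the H3K79 writer, differed by −0.03. The H4K20 writers *KMT5A*, which adds the first methyl group, and *KMT5B*, which adds further ones, differed by −0.13 and −0.23 at their brightest probe sets. Both dimmer probe sets of *KMT5B* were called. The first measured 7.48, 7.57 and 7.56 in control and 7.01, 7.09 and 6.73 in siKDM1A cells and fell by 0.59 (limma adjusted p = 0.012). The second measured 5.69, 6.14 and 6.37 against 4.96, 5.32 and 5.23 and fell by 0.90 (limma adjusted p = 0.016). At the brightest, siKDM1A arrays a and b measured 7.07 and 7.24 and array c 7.46, within the control values of 7.46 to 7.50. Neither was called without control array b or c, nor the second without siKDM1A a. With the mean of its probe sets *KMT5B* was called lower.

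Counted over all 161 probe sets, 18 were called lower and 1 higher, against 3.73% and 2.18% of all probe sets. At least 1 probe set was called lower in 13 genes, of which *SETD2*, *KMT2A*, *KMT5B* and *PRDM2* were called on a dimmer probe set alone. Such a count rises with the number of probe sets per gene, and 39 of the 48 genes had several. The matching share over all genes was not counted, so the 13 cannot be set against it. Which transcripts the individual probe sets detect was not examined here.

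**Figure D3:**
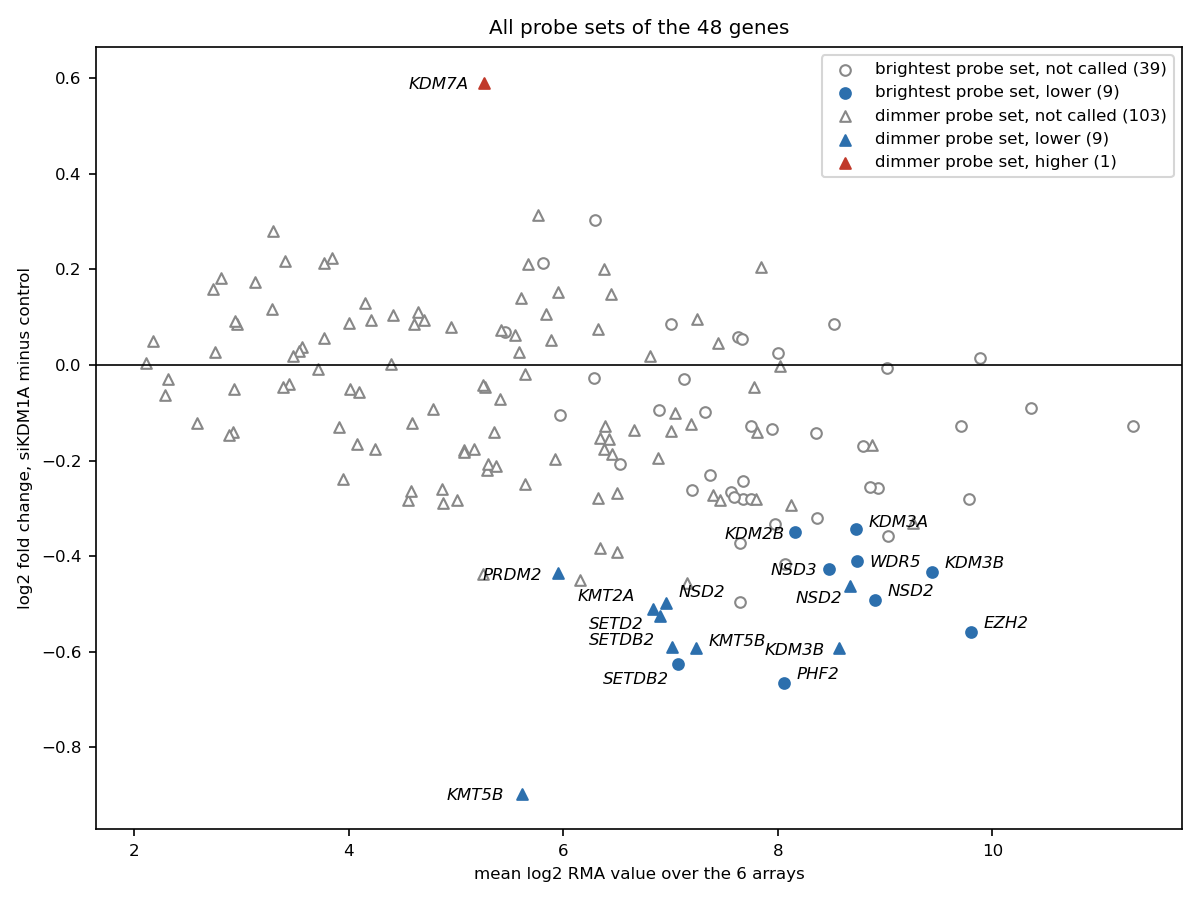
Log2 difference between siKDM1A and control (y axis) against the mean log2 RMA value over the 6 arrays (x axis) for the 161 probe sets. Circles are the brightest probe set of a gene and triangles the dimmer ones, with 18 probe sets called lower in blue and 1, of KDM7A, called higher in red.

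Further genes of histone methylation were counted in the same way. Of 29 other writers, erasers and accessory subunits 3 were called lower and 0 higher by limma, with 11 lower and 0 higher at an unadjusted p under 0.05 and a median difference of −0.14. The share called lower was 10.3%, against 5.46% of all genes and 7.91% of the brighter genes, and 14.4% of all genes were lower at an unadjusted p under 0.05. *PHF19*, a PRC2 accessory protein that binds methylated H3K36, fell by 0.69 (limma adjusted p = 0.0034). The histone-binding protein *RBBP4*, shared by PRC2 and chromatin assembly factor, fell by 0.45 and *KDM4D*, an H3K9 eraser best known from testis, by 0.41. Without siKDM1A array a or any control array 1 of the 29 was called lower.

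Proliferation markers were lower on the same arrays. Of 16 such genes 11 were called lower and 0 higher, with a median difference of −0.55, and *MKI67* fell by 0.98. Over all genes 5.46% were called lower and 3.45% higher, and 7.91% of the brighter genes were called lower. *EZH2* is known to be regulated by E2F and to be expressed in cycling cells. How far the lower values of *EZH2* and of the other methylation genes go along with fewer cycling cells was not tested.

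**Figure D4:**
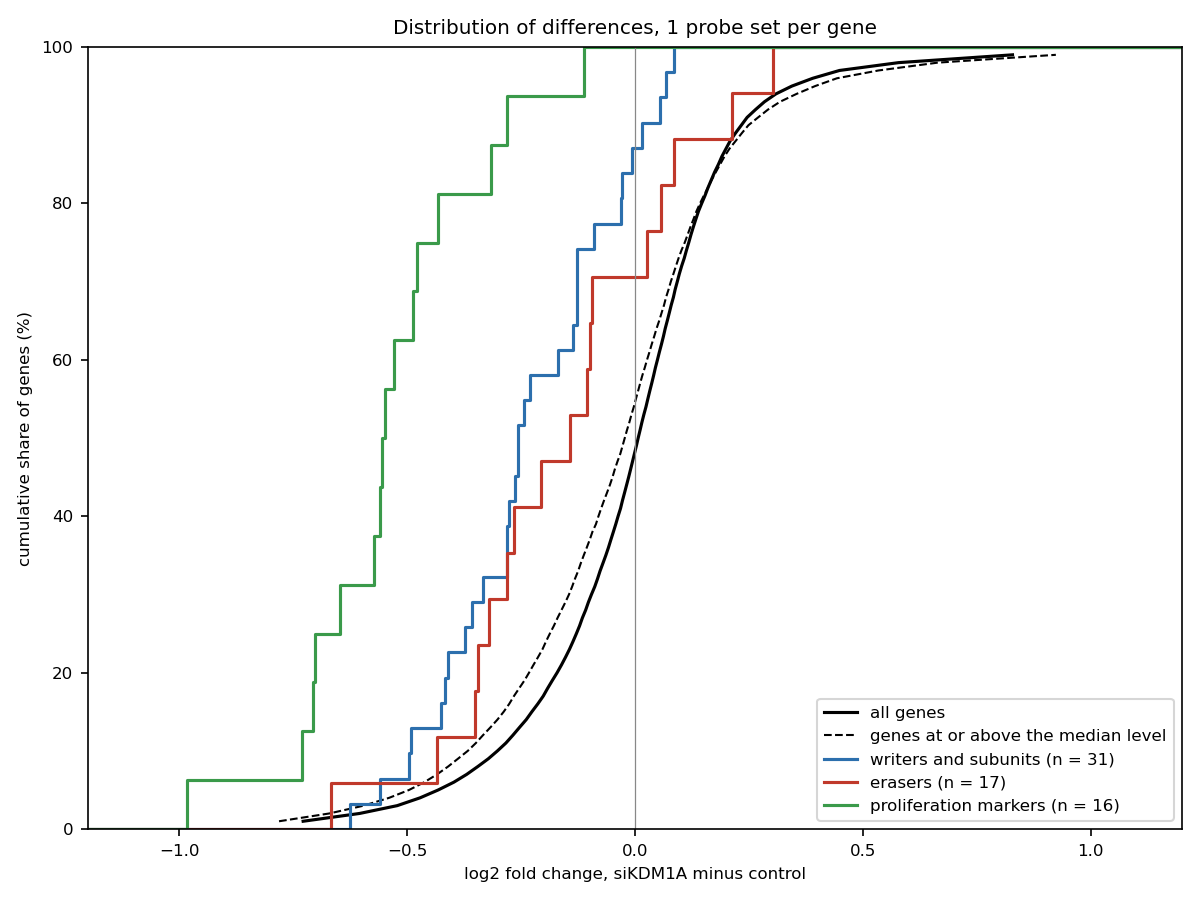
Cumulative share of genes (y axis, %) with a log2 difference between siKDM1A and control up to the value on the x axis, for all genes, the brighter genes, writers and subunits, erasers, and proliferation markers. The median is 0.01 for all genes, −0.02 for the brighter genes, −0.26 for writers and subunits, −0.14 for erasers and −0.55 for the proliferation markers.

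Promoter sequences were read for the genes that fell, with cell cycle motifs searched on both strands. The windows span 250 bases before to 50 bases after an annotated start (RefSeq, GRCh38.p14) and covered 8 of the 9 genes called lower in 16 windows. The E2F motifs TTTCCCGC or TTTGGCGC occurred in 2 of them (12.5%), those of *EZH2* and *NSD2*, in 2 of 53 windows (3.77%) of the genes not called, those of *JMJD1C* and *SUZ12*, and in 2.27% of all 35116 windows. The CCAAT box (CCAAT) occurred in 9 of the 16 windows (56.25%), in 28.3% of the windows of genes not called and in 34.6% of all windows. The motif TTTGAA of the cell cycle homology region occurred in 2 of the 16 windows (12.5%), in 13.2% of the windows of genes not called and in 15.2% of all windows. Windows of a gene can overlap and share a match, and a match of letters is not a bound site.

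The windows of *EZH2* (chr7:148884242-148884541, minus strand) and *NSD2* (chr4:1871143-1871442, plus strand) are shown because they hold an E2F match. Capitals mark the E2F and CCAAT matches, the latter also as ATTGG, its reverse complement.
EZH2: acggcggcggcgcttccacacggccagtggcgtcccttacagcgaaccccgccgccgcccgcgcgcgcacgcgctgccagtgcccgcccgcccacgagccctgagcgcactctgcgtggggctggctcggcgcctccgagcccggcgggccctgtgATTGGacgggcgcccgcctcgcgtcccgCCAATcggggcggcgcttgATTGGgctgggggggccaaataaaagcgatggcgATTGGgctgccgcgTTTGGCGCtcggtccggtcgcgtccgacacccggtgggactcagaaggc
NSD2: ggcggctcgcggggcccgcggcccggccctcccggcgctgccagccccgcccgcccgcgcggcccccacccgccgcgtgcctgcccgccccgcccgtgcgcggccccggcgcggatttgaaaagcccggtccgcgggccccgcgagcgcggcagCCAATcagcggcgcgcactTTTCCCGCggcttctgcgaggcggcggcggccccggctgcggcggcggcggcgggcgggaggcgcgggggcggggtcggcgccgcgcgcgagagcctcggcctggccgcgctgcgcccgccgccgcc
In the *EZH2* window the E2F match begins 1 base after the annotated start and 4 CCAAT matches lie upstream of it. In the *NSD2* window the E2F match begins 77 bases before the start and a CCAAT match 96 bases before it.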

How the data were processed

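Per the labels' processing notes RMA and Partek software were used, and the authors deposited log2 values for 54675 probe sets on 6 arrays. RMA gives the arrays a common distribution, so a shift shared by most genes would be largely removed. No detection call and no depth exist for these values, and 3 arrays per group limit the precision. The log2 values were tested with limma 3.58.1 in R 4.3.3 (lmFit and eBayes, siKDM1A minus control, two-sided). The p-values of 54613 probe sets, all but the 62 control probe sets, were adjusted by Benjamini-Hochberg, with a threshold of 0.05. limma was used in place of the one-way ANOVA, which was run as an alternative. The script was tested on simulated data.

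Probe sets were named from the platform annotation, in which 41091 name 1 gene, 1801 several and 11721 none, and all 48 measured symbols matched RefSeq by Entrez ID. Genes called at any probe set, *KDM5A*, *KDM5B*, *KDM5C* and *KDM1B* are given in full, the others by class. The genes, residue classes and lists were chosen with earlier results of these data known. As alternatives arrays were centred on their medians or aligned by cyclic loess, and the fit was repeated with a filter on dim probe sets, a trended robust prior, a replicate block, the ANOVA, other ways to represent a gene, and leaving out each array.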

Additional observations from a re-analysis of the deposited data

How the results depend on the processing

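The 9 genes called lower became 5 after cyclic loess (*WDR5*, *SETDB2*, *PHF2*, *EZH2* and *NSD2*) and 3 with the one-way ANOVA (*WDR5*, *KDM3A* and *EZH2*). Leaving out 1 array gave 2 to 6 genes called lower, 2 without control array c (*PHF2* and *EZH2*), 3 without control a or control b, 4 without siKDM1A a or siKDM1A b and 6 without siKDM1A c. No gene was called higher in these fits, and 1 (*KDM7A*) was with the mean of a gene's probe sets. The median log2 difference of the 48 genes was −0.26 after median centring, −0.18 after cyclic loess and −0.13 with the mean of a gene's probe sets. It was −0.21 when _x_at and _s_at probe sets were set aside where a gene had another, and −0.25 to −0.15 with 1 array left out. Genes with only such probe sets kept them. Over all probe sets 3230 were called, 676 with the ANOVA and 1303 to 2666 with 1 array left out. Of the accessory genes 3 were called lower, 0 with the ANOVA and 1 without siKDM1A a or any 1 control array. *PHF2* was called in 13 of 14 settings and *EZH2* in 14, while *KDM3A*, *NSD3* and *KDM2B* were called in 5 each. For these genes the setting on _x_at and _s_at probe sets kept the same probe set and repeated the main fit. No value named for the genes called reversed its sign.

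With the replicate block 8 genes were called lower, without *KDM3A* and *KDM2B* and with *SETD2*. Deviations from the group means had correlations of 0.11, 0.23 and −0.13 between arrays of the same letter and −0.32 to 0.18 between different letters. The difference between the 3' and 5' *ACTB* control probe sets was 1.43 and 1.41 on control and siKDM1A array a. It was 0.86 and 0.72 on b, and 1.22 and 0.91 on c. Whether the letters pair the arrays cannot be told from these values. The smallest difference called among the 48 genes was 1.27-fold, and their standard errors ran from 0.080 to 0.17. The deposited values are already summarized, so other background corrections were not tried.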
